A study of Caenorhabditis elegans with 3 samples.

Results

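The GLH and PGL genes of the nematode Caenorhabditis elegans encode proteins of P granules, the RNA and protein condensates of the germline. They were examined in RNA of hermaphrodites at an early point of young adulthood, by 3 two-colour DNA microarrays. Each array paired 1 prep of these worms (labelled TP07 YA 1, preps 1, 2 and 3) in channel 2 with a reference pool of mixed wild-type mRNA in channel 1. The values are log2 ratios of worms to reference, in which 0 means equal amounts. The preps form 1 group, and the sources used here do not give the genotype of the worms, their age in hours or the makeup of the reference pool. Members were the genes glh-1, glh-2, glh-3, glh-4, pgl-1, pgl-2 and pgl-3, taken by the gene symbol of the array platform. All 7 had a probe with a value on all 3 arrays, among 15062 genes that did. They were read by 8 of the 20000 probes, 2 of which belong to glh-4.

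P granules lie on the cytoplasmic face of germ cell nuclei, over nuclear pores, and hold mRNA and small RNA machinery. GLH proteins are RNA helicases of the DEAD-box class and relatives of Vasa, the germline helicase found across animals. PGL proteins have no close relatives outside nematodes. They associate with one another and bind RNA, and they form the scaffold on which granules build. In adults both families are found in the germline, so in RNA of whole worms their level follows the share of germline tissue as well as the RNA per germ cell, and these cannot be told apart here.

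The ratios likely run as worms over reference. This direction rests on the channel labels and on col-19, a collagen gene of the adult cuticle that marks the adult stage, whose mean log2 ratio was 2.60 ± 0.06 (SD, n = 3). Of 6 markers listed for the adult hermaphrodite, 4 were above 0 by the test described below, against 21.7% of all genes. These were 3 adult collagen genes and the yolk protein gene vit-2, at 1.199, 0.94 and −0.09 in preps 1, 2 and 3, whose call ended without prep 1 (limma adjusted p = 0.109), without prep 2 (0.0561), and against a 1.2-fold margin (0.137). The yolk protein genes vit-6, at 0.25 ± 0.20, and vit-5, at 0.05 ± 0.51 (SD, n = 3), did not pass. The sources used here do not name the dyes, and all directions reported here would flip if the ratio ran the other way. A gene-specific dye effect and a difference between worms and reference cannot be told apart either. The correlation of the arrays over probes was 0.80 for preps 1 and 2, 0.77 for preps 1 and 3 and 0.91 for preps 2 and 3, so prep 1 stood somewhat apart. The sources used here do not say whether the preps were separate cultures, so the p-values cover the spread of these preps alone, and that spread may be technical. Each array title ends in a different date-like string, whose meaning is not given. Differences between preps and between those strings cannot be told apart. The number of arrays limits the precision of every value below.

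Of the 7 genes, 6 were above the reference and 1, pgl-2, did not pass the test. Each mean log2 ratio was tested against 0 with limma's moderated one-sample test, with Benjamini-Hochberg adjustment over the 15062 genes at 0.05. By that rule 44.0% of all genes were called, 21.7% above the reference and 22.2% below it. By at least 1 on the log2 scale, a ratio of 2-fold, 5 of the 7 were above, against 5.81% of all genes. The median of the members' mean log2 ratios was 1.92, against 0.00 over all genes tested. All 4 GLH genes passed, as did 2 of 3 PGL genes.

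**Figure D1:**
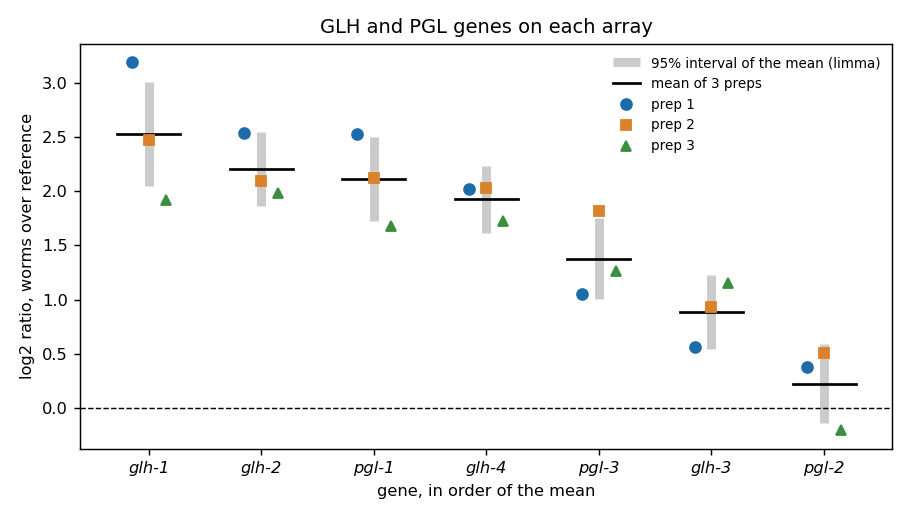
Log2 ratio of worms over reference (y axis) for each GLH and PGL gene (x axis, in order of the mean) on each array. Points are preps, black lines the mean of 3 preps and grey bars the 95% interval of that mean from limma. On all arrays glh-1, glh-2, pgl-1 and glh-4 lie between 1.68 and 3.19, while pgl-2 has points on both sides of 0.

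The gene glh-1 (T21G5.3, chromosome I) encodes the GLH helicase best studied in the germline, with FG repeats and zinc knuckles beside its helicase domain. Its log2 ratio was 3.19 in prep 1, 2.47 in prep 2 and 1.91 in prep 3. All preps were far above 0, and prep 1 was the highest by a wide margin. The mean was 2.52 ± 0.64 (SD, n = 3), a ratio 5.75-fold above the reference, with a 95% interval of 2.04 to 3.00 and a limma adjusted p of 2.26e-05. Its SD is large for these arrays, since 2.26% of all genes had a larger one and the median SD over genes was 0.22. In prep 1 it ranked 9 of the 15062 genes by log2 ratio, in prep 2 it ranked 53 and in prep 3 it ranked 179.

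The gene glh-2 (C55B7.1, chromosome I) encodes a helicase of similar build that is the closest relative of GLH-1. It was at 2.54, 2.09 and 1.98 in preps 1, 2 and 3. Prep 1 was again the highest and prep 3 the lowest, over a narrower range than for glh-1. The mean was 2.203 ± 0.29 (SD, n = 3), 4.60-fold above the reference (limma adjusted p = 7.13e-06). The paralogs resemble each other in sequence, and the probe sequences were not used here, so signal shared between the glh-1 and glh-2 probes was not tested. The difference between them, glh-1 minus glh-2, was 0.65 in prep 1, 0.38 in prep 2 and −0.07 in prep 3, so their order was not the same on all arrays.

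The gene glh-4 (T12F5.3, chromosome I), which acts partly redundantly with glh-1 in fertility, had 2 probes. The first read 1.98, 2.10 and 1.70 in preps 1, 2 and 3, and the second read 2.06, 1.96 and 1.74. The probes differed by at most 0.15 on any array. Their averages of 2.02, 2.03 and 1.72 gave a mean of 1.92 ± 0.17 (SD, n = 3), 3.80-fold above the reference (limma adjusted p = 8.94e-06). This was the smallest SD of the 7 genes, below the median SD of all genes.

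The gene glh-3 (B0414.6, chromosome I) encodes a shorter GLH helicase with zinc knuckles and no FG repeats. It was at 0.56, 0.93 and 1.16 in preps 1, 2 and 3, the lowest of the GLH genes on every array. Here prep 3 was the highest and prep 1 the lowest, the opposite of glh-1 and glh-2. The mean was 0.88 ± 0.30 (SD, n = 3), 1.84-fold above the reference (limma adjusted p = 0.00123). The difference of glh-4 minus glh-3 was 1.46, 1.10 and 0.57 in the 3 preps, a mean of 1.04 ± 0.45 (SD, n = 3).

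Among the PGL genes, pgl-1 (ZK381.4, chromosome IV) encodes the founding member of the family, needed for fertility at high temperature. It was at 2.53, 2.12 and 1.68 in preps 1, 2 and 3. Prep 1 was the highest and prep 3 the lowest, as for glh-1 and glh-2. The mean was 2.11 ± 0.43 (SD, n = 3), 4.32-fold above the reference (limma adjusted p = 1.83e-05).

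The gene pgl-3 (C18G1.4, chromosome V) encodes the PGL protein most similar to PGL-1, with which it acts redundantly. It was at 1.05, 1.82 and 1.26 in preps 1, 2 and 3, with prep 2 the highest. The mean was 1.38 ± 0.40 (SD, n = 3), 2.60-fold above the reference (limma adjusted p = 1.72e-04). It was below pgl-1 on every array, by 1.48, 0.30 and 0.41, a mean difference of 0.73 ± 0.65 (SD, n = 3).

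The gene pgl-2 (B0523.3, chromosome III) encodes a more divergent PGL protein that joins P granules after embryogenesis. It was at 0.38, 0.51 and −0.21 in preps 1, 2 and 3, so the arrays lay on both sides of the reference. The mean of 0.23 ± 0.38 (SD, n = 3) did not pass the test (limma adjusted p = 0.299). Its 95% interval ran from −0.14 to 0.59, and lies below that of pgl-3, which ran from 1.01 to 1.75. These intervals are of each gene alone and do not test the difference between genes. The difference of pgl-3 minus pgl-2 was 0.68, 1.31 and 1.47 in the 3 preps, and that of pgl-1 minus pgl-2 was 2.16, 1.61 and 1.88, a mean of 1.88 ± 0.27 (SD, n = 3). Each difference had an exact two-sided sign-flip permutation p of 0.25, the smallest that 3 arrays can give.

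In order of their means the genes ran glh-1, glh-2, pgl-1, glh-4, pgl-3, glh-3 and pgl-2. Because the order was set from these means, the mean gap between any neighbours is positive by construction. The last 3 places were the same on all arrays. The first 4 places changed between arrays, and the differences between neighbours there did not exceed their spread. The gap of glh-1 over glh-2 was 0.32 ± 0.36, that of glh-2 over pgl-1 was 0.09 ± 0.18 and that of pgl-1 over glh-4 was 0.19 ± 0.29 (SD of the difference, n = 3). The lower gaps had one sign on all 3 arrays, at 0.55 ± 0.38 for glh-4 over pgl-3, 0.496 ± 0.39 for pgl-3 over glh-3 and 0.66 ± 0.62 for glh-3 over pgl-2. A two-sided exact sign-flip permutation test on 3 arrays cannot give a p below 0.25, which is the value of each of these 3 gaps (before any adjustment over the 6 neighbouring pairs), so none can pass 0.05.

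As families, the GLH genes averaged 2.08, 1.88 and 1.69 in preps 1, 2 and 3, and the PGL genes averaged 1.32, 1.48 and 0.91. The GLH mean was higher on each array, by 0.76, 0.40 and 0.78. The PGL mean includes pgl-2, at 0.38, 0.51 and −0.21, which lowers it, and the difference without pgl-2 was not tested. Of the other PGL genes, pgl-1, at 2.53, 2.12 and 1.68, was above the GLH mean in preps 1 and 2. pgl-3, at 1.05, 1.82 and 1.26, was below it on every array. The mean difference was 0.65 ± 0.22 (SD, n = 3), with an exact two-sided sign-flip permutation p of 0.25, the smallest that 3 arrays can give. Members of each family were spread more widely than the families differed, from 0.88 to 2.52 among the GLH genes and from 0.23 to 2.11 among the PGL genes.

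**Figure D2:**
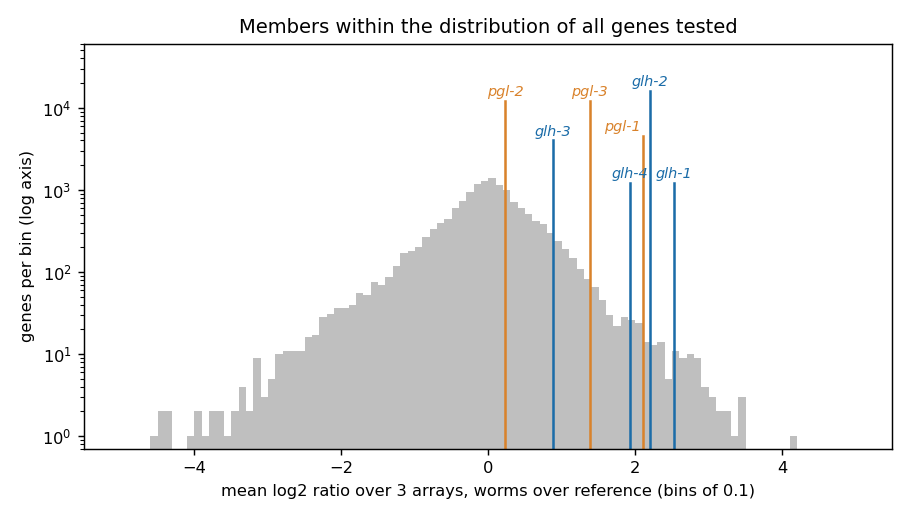
Histogram of the mean log2 ratio over 3 arrays for all 15062 genes tested (x axis, bins of 0.1), with the number of genes per bin on a log axis. Vertical lines mark GLH genes in blue and PGL genes in orange, and their heights serve only to separate the labels. The 4 highest members lie in the sparse upper tail, and pgl-2 lies in the centre.

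Within the distribution of all genes the members took very different places. By mean log2 ratio, 0.345% of all genes were higher than glh-1, 0.571% higher than glh-2, 0.657% higher than pgl-1 and 0.936% higher than glh-4. Above pgl-3 lay 2.37% of all genes, above glh-3 7.67% and above pgl-2 31.5%. The position of glh-3 moved most among the called genes, from 17.1% of genes above it in prep 1 to 4.36% in prep 3.

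The preps did not shift the members alike. Of the 7 genes, glh-1, glh-2 and pgl-1 had prep 1 highest and prep 3 lowest, as did 23.1% of all genes, while glh-3 had the reverse, as did 17.7% of all genes. Oocyte markers listed for the check of cell types had a median log2 ratio of 1.62, 1.37 and 1.06 in preps 1, 2 and 3, and 7 of 9 had prep 1 highest and prep 3 lowest. Sperm markers had medians of 1.36, 2.06 and 2.23, and 1 of 10 had that pattern, against 3 of 10 with the reverse. Markers of meiotic germline nuclei had medians of 0.85, 1.07 and 0.80, and 1 of 6 had prep 1 highest and prep 3 lowest. The pattern was also seen outside the germline markers, in 4 of 8 neuronal markers. Of the other DEAD-box helicase genes 7 of 11 had it, among them cgh-1 and rde-12, which are also in the P granule list. Oocytes carry P granule proteins and maternal mRNA, whereas mature sperm discard their P granules, but the part of oocyte or sperm content in the members' spread was not tested.

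**Figure D3:**
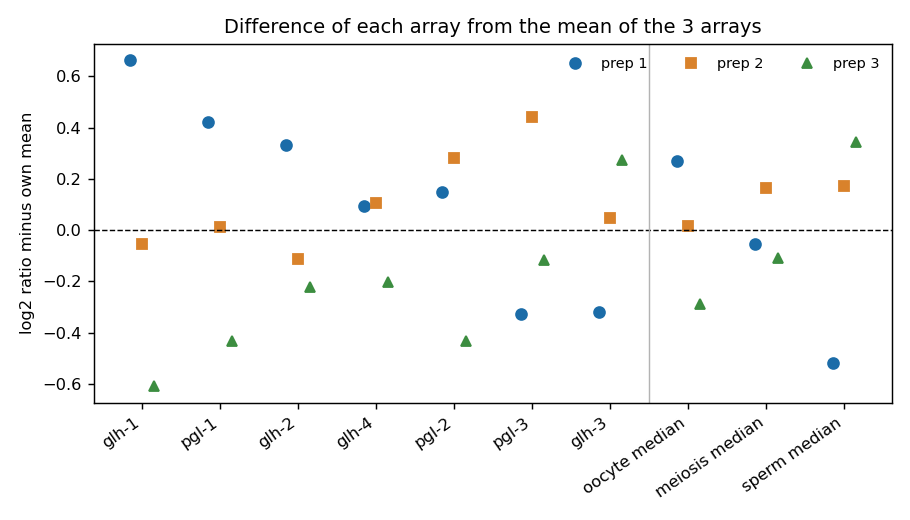
Log2 ratio on each array minus the gene's own mean over the 3 arrays (y axis), for the 7 genes and, right of the grey line, for the median of the oocyte, meiosis and sperm marker lists. Points are preps. Prep 1 is highest for glh-1, pgl-1, glh-2 and the oocyte median, and lowest for pgl-3, glh-3 and the sperm median.

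Germline markers were mostly above the reference in these worms, where 21.7% of all genes were above and 22.2% below. Of 9 oocyte markers, 7 were above the reference with a list median of 1.33, and of 6 meiosis markers 5 were above with a median of 0.88. Of 10 sperm markers 9 were above with a median of 1.897. The sperm list holds several genes of the msp family, and signal shared between their probes was not tested. In the same list spe-11, fer-1 and spe-9 had mean log2 ratios of 1.37, 0.44 and 0.28, and spe-9 did not pass. Of 8 neuronal markers 7 were below, with a median of −1.26. Body wall muscle (1 above and 2 below of 6, median 0.14) and intestine (2 above and 2 below of 6, median 0.20) lay on both sides. Of 5 embryonic markers 2 were below and 0 above, with a median of −0.30, and of 6 markers of male neurons 1 was below and 0 above, with a median of 0.02.

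Genes of other P granule proteins were mostly above the reference too, at lower ratios. Of 26 measured genes in a list of 28, 24 were above, or 92.3%, against 21.7% of all genes, and 2 did not pass. Their median was 0.97, against 1.92 for the GLH and PGL genes, and the difference between the lists was not tested. The highest were cgh-1, which encodes a DEAD-box helicase that keeps stored oocyte mRNA from decay, at 2.36, 1.76 and 1.44 in preps 1, 2 and 3, and gld-1, a translational repressor of the germline, at 2.13, 1.80 and 1.21. Their means were 1.85 ± 0.47 and 1.71 ± 0.47 (SD, n = 3). Both had prep 1 highest and prep 3 lowest, as did 9 of the 26 genes, or 34.6%, against 23.1% of all genes. The lowest were meg-4, which encodes an intrinsically disordered protein of embryonic P granules, at 0.38 ± 0.23 (limma adjusted p = 0.0545), and pptr-1, a regulatory subunit of the phosphatase PP2A, at 0.05 ± 0.44 (limma adjusted p = 0.855), with prep 1 at −0.39 and prep 2 at 0.48. By mean log2 ratio 0 of the 26 were above glh-4, 14 lay between glh-3 and glh-4, and 12 were below glh-3.

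Genes of the condensates that adjoin P granules lay on a wide range. Of 9 measured genes of Z granules, Mutator foci and SIMR foci, which process and inherit small RNAs, 6 were above, against 21.7% of all genes, and 3 did not pass. The median was 0.57, and its difference from the P granule list was not tested. The Argonaute gene wago-4 was at 1.47 ± 0.48 and lotr-1, which encodes a LOTUS and Tudor domain protein, at 1.46 ± 0.28 (SD, n = 3), both close to pgl-3. The nuclease genes nyn-1 and rde-8 were at 0.19 ± 0.29 and 0.15 ± 0.21 and did not pass. rde-2, at 0.33 ± 0.12, did not pass either, except without prep 1 (0.40, limma adjusted p = 0.0214). Against a 1.2-fold margin mut-7 and znfx-1 lost their calls, which left 4 genes above. The call of znfx-1 also ended with blocks of 500 neighbouring probes centred, without prep 1 and without prep 3.

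Of 18 other DEAD-box helicase genes listed, which share the enzyme class of the GLH genes but work across RNA metabolism, 11 were measured. Those not measured include vbh-1 and laf-1. Of the 11, 9 were above, against 21.7% of all genes, and 2 did not pass, with a median of 0.79. The highest was cgh-1, which is also in the P granule list, followed by ddx-19 at 1.51 ± 0.12. The lowest were smut-1 at 0.25 ± 0.12 and ddx-17 at −0.27 ± 0.64 (SD, n = 3). Against a 1.2-fold margin, and likewise without prep 2, ddx-52 and rde-12 lost their calls, which left 7 genes above. The call of rde-12 also ended with blocks of 500 neighbouring probes centred and without prep 1. With those blocks centred smut-1 passed (0.45, limma adjusted p = 0.0171). ddx-17 was 0.46 in prep 1, −0.51 in prep 2 and −0.76 in prep 3, and without prep 1 it was below the reference (−0.63, limma adjusted p = 0.00214). The genes glh-1, glh-2 and glh-4 were above every one of the 11 by mean log2 ratio, while glh-3 was close to the median of this list.

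**Figure D4:**
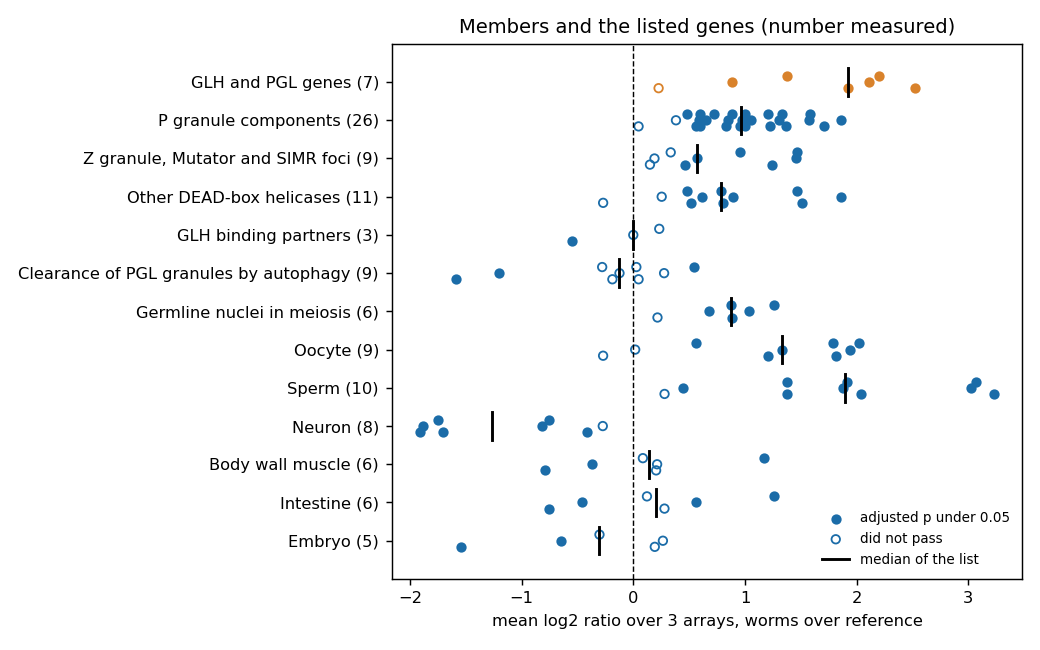
Mean log2 ratio over 3 arrays (x axis) of the GLH and PGL genes in orange and of the listed genes in blue, 1 row per list with the number of genes measured. Filled points passed the limma test at an adjusted p of 0.05, open points did not, and black bars are list medians. The GLH and PGL row has a median of 1.92, the row of other P granule genes 0.97 and the neuronal row −1.26.

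Genes whose products act on GLH and PGL proteins were set beside all genes, of which 44.0% were called, 21.7% above and 22.2% below. Of 3 GLH binding partners, 1 lay below, 0 lay above and 2 missed the threshold. KGB-1, a JNK-like kinase that binds GLH-1 and promotes its breakdown, is encoded by kgb-1, which was at −0.30, −0.67 and −0.69 in preps 1, 2 and 3. The mean was −0.55 ± 0.22 (SD, n = 3; limma adjusted p = 0.0105), below the reference, a call that ended without prep 2, without prep 3 and against a 1.2-fold margin (0.0971, 0.0864 and 0.108 as limma adjusted p). csn-5, which encodes a COP9 signalosome subunit that binds GLH proteins, was at 0.00 ± 0.25, and zyx-1, which encodes a LIM domain protein that also binds them, at 0.23 ± 0.20. Neither passed, except zyx-1 without prep 1 (0.34, limma adjusted p = 0.0384). Of 14 listed autophagy genes of the pathway that clears PGL granules from somatic cells of embryos, 9 were measured. The genes sepa-1, epg-2, epg-11, atg-3 and unc-51 were not. Of the 9, 1 lay above, 2 lay below and 6 missed the threshold, with a median of −0.12. The 2 below were the Atg8 family genes lgg-1, at −1.58 ± 0.26, and lgg-2, at −1.20 ± 0.22. epg-4 was at 0.54 ± 0.22 (limma adjusted p = 0.0114), a call that ended without prep 3, against a 1.2-fold margin and with blocks of 500 neighbouring probes centred. atg-7 was at 0.27 ± 0.24 and did not pass. bec-1, at −0.28 ± 0.29, did not pass either. It was below the reference with those blocks centred (−0.44, limma adjusted p = 0.0406) and without prep 1 (−0.43, limma adjusted p = 0.0179).

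The position of the genes on the chromosomes was set beside their values. All 4 GLH genes lie on chromosome I, where 33.6% of 2044 genes were above the reference, and the PGL genes lie on IV, III and V, where 26.7%, 32.5% and 13.0% were. None lies on X, where 6.50% of 2245 genes were above. Each member has a protein-coding gene on either side, and 12 of these 14 had values. Of the 12, 6 were above, 2 below, and 4 missed the threshold, where 21.7% of all genes were above and 22.2% below. The gene him-3, beside pgl-1, which encodes a meiotic axis protein, was at 0.88 ± 0.07, and the linker histone gene hil-4, beside pgl-3, at 1.203 ± 0.18. lin-59, beside glh-4, was below at −0.78 ± 0.26 (SD, n = 3). The neighbours named were chosen after their values were seen.

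The genes most like each member were found by the root mean square difference of log2 ratios over the 3 arrays. For glh-1 the nearest of all other genes were epic-1, at a distance of 0.30, and bcf-1, at 0.32, and 0 genes lay within 0.25. For glh-2 they were hrg-11.2 at 0.10 and nrf-6 at 0.16, and for pgl-1 hrg-11.3 at 0.10 and col-181, a cuticle collagen gene, at 0.12. Within 0.25 lay 17 genes for glh-2 and 16 for pgl-1. Nearest to glh-4 were npp-10 and npp-9, which encode nuclear pore proteins, at 0.07 and 0.08, among 33 genes within 0.25.

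The remaining members lie where more genes lie, so near matches are common. For pgl-3 the nearest were F01G4.4 at 0.02 and mel-28, which encodes a nuclear envelope and chromatin protein, at 0.08, with 78 genes within 0.25. For glh-3 they were F09C12.2 at 0.02 and R119.1 at 0.04, with 342 genes within 0.25, and for pgl-2 the cyclin C gene cic-1 at 0.06 and the deadenylase gene ccr-4 at 0.08, with 507. With 3 arrays such likeness describes these arrays alone.

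Leaving out 1 prep at a time kept all 6 calls. Each such fit leaves a gene 1 residual degree of freedom, so its call rests largely on the variance that limma shares across genes. Calls kept there do not measure how well the preps agree. Without prep 1 the mean of glh-1 fell to 2.19, and without prep 3 it was 2.83. glh-3 ran from 0.75 without prep 3 to 1.04 without prep 1, and pgl-3 from 1.16 without prep 2 to 1.54 without prep 1. pgl-2 moved most in proportion, from 0.08 without prep 2 to 0.44 without prep 3, and passed in none of these fits (smallest limma adjusted p = 0.111). The 6 calls rest on the variance that limma shares across genes, since without that moderation the adjusted p of the 6 genes ran from 0.0734 to 0.120. Blocks were fixed runs of 500 probes in the order of the probe list. Whether that order follows position on the slide was not tested, so a block median may not measure local drift. The median of the block holding the second glh-4 probe was 0.36 in prep 1, −0.07 in prep 2 and −0.05 in prep 3. Around glh-1 the block median was 0.27, 0.15 and 0.07 in that order. It was between 0.04 and 0.15 on all arrays around pgl-2 and the first glh-4 probe. It ran from 0.16 to 0.22 around glh-3 and pgl-1, from 0.21 to 0.33 around glh-2 and from −0.28 to −0.16 around pgl-3. With each block centred on 0, glh-1 was at 2.36, glh-4 at 1.82, glh-3 at 0.68, pgl-1 at 1.91 and pgl-3 at 1.61, and all 6 genes still passed.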

How the data were processed

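Per the labels, channel 1 of each array held a mixed reference and channel 2 held 1 prep of worms. The authors deposited log2 ratios, 1 for each probe on an array. That the base is 2 follows from the values: among ratios under 1, 100% lay at a whole number of 0.001 steps, to within 0.01 step. Column medians were 0.01, 0.01 and 0.02. Centring is thus near 0, while the sources used here do not give the dyes, background correction or normalization. The ratios were used as deposited. Of 20000 probes, 19664 had a value on all arrays, 15655 had 1 gene symbol in the platform annotation, 198 had several and 4147 were not listed. Of the single symbols 15569 matched a table of WBcel235 genes, used for names, chromosomes and neighbours only. Probes of a gene were averaged, giving 15062 genes.

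limma 3.58.1 in R 4.3.3 fitted an intercept to the 3 arrays with eBayes (prior of 7.34 degrees of freedom, SD 0.25), two-sided, with Benjamini-Hochberg adjustment over all genes. The spread of the shared reference is left out of the test. Single differences used an exact sign-flip test over arrays. The steps were tested on simulated data, in which 30% of genes with a log2 change of 0.5 were called and 100% with a change of 1. There 11 unchanged genes were called. The simulated noise was independent between genes, and fewer genes were changed than were called here. A gene that did not pass is thus not shown to be equal in worms and reference. The members and lists were chosen with earlier results of these data known. Named were all members, the 2 genes most like each, and the 2 highest and 2 lowest of each list (all of 4 or fewer), with marker genes and chromosomal neighbours besides. Listed genes that gained a call in another setting were named too. So were those that lost a call in the lists of adjoining condensates and of other DEAD-box helicases. The lists share genes: cgh-1 and rde-12 are in 2, and oma-1 and oma-2 are also oocyte markers. Alternatives were other normalizations, block centring, other probe filters, variance settings and test units, the sign turned, and each prep left out. Protein and promoter sequences were not used here.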

Additional observations from a re-analysis of the deposited data

How the results depend on the processing

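All 7 members kept their direction and side of the threshold with median centring, scale or quantile normalization, centred blocks of 500 probes, probes on at least 2 arrays, robust eBayes, a 1.2-fold margin, probes in place of genes, and each prep left out. Without moderation the values were the same, but the 6 called genes, glh-1 at 2.52, glh-2 at 2.203, glh-3 at 0.88, glh-4 at 1.92, pgl-1 at 2.11 and pgl-3 at 1.38, no longer passed, and 0 of 15062 genes passed in either direction, of members or of P granule genes. At an unadjusted p of 0.05 all 6 of them passed, as did 5399 genes. With the sign turned the values were −2.52, −2.203, −0.88, −1.92, −2.11 and −1.38 in that order, −0.23 for pgl-2 and −0.65 for the GLH mean minus the PGL mean, with 0 members and 0 P granule genes above. Against the 1.2-fold margin 1972 genes were above and 2085 below, in place of 3275 and 3347, and 19 P granule genes in place of 24. With each prep left out, glh-1 ran from 2.19 to 2.83, glh-2 from 2.04 to 2.31, glh-3 from 0.75 to 1.04, glh-4 from 1.87 to 2.03, pgl-1 from 1.899 to 2.33, pgl-2 from 0.08 to 0.44 and pgl-3 from 1.16 to 1.54. The count of members stayed at 6, and that of P granule genes ran from 19 to 23. That of all genes above ran from 2276 to 3841 and below from 2334 to 3923. The family difference, with pgl-2 included, ran from 0.58 to 0.77. No paired analysis was possible because there is only 1 group of samples. Spot intensities were not analysed here, so how far dim spots limit these ratios was not tested.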
